A study of Homo sapiens with 6 samples.

Results

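The genes described here are 48 listed genes of cytokine, chemokine and NF-kB signalling, measured by RNA-seq in PANC-1 cells with and without silencing of ZDHHC20. They were taken by name as secreted ligands, their receptors, the NF-kB subunits with their kinases, inhibitors and adaptors, and known target genes. Of the 27394 genes in the deposited table, 46 were on the list, and 45 of these averaged at least 1 over the 6 libraries and were tested. IL6 stayed under that mean. CSF2 and PTGS2 were not analysed here. PANC-1 is an established human pancreatic ductal carcinoma line, and the cells carried either a control shRNA (shControl, n = 3) or an shRNA against ZDHHC20 (shZDHHC20, n = 3), with no cytokine or other stimulus named in the labels. ZDHHC20 is a palmitoyltransferase, an enzyme that attaches palmitate to cysteines of proteins. The text of the study does not say which of its hairpins against ZDHHC20 these libraries carried, so effects of that hairpin on other transcripts and effects of losing ZDHHC20 cannot be told apart. Nothing in the labels says that the replicates came from separate cultures, and p-values then measure only the spread between these samples.

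NF-kB is a family of dimeric transcription factors that inhibitors of the IkB group hold in the cytoplasm until the IKK complex marks them for destruction. In the canonical arm, receptors such as the TNF receptor act through TRAF and cIAP proteins on IKK and release RELA with the p50 product of NFKB1. In the non-canonical arm, the kinase NIK (gene MAP3K14) is kept low by TRAF2 with BIRC2 and BIRC3, and when it builds up it acts through CHUK on the NFKB2 precursor, which partners RELB. Several of the inhibitors and subunits, such as NFKBIA, TNFAIP3, NFKB2 and RELB, are themselves transcribed in response to NF-kB. Pancreatic carcinoma cells commonly show NF-kB activity and secrete chemokines and ligands of the interleukin 6 family. Most ligands of that family signal through the shared receptor IL6ST (gp130).

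The deposited values rose in steps of a library's smallest value, as gene counts divided by 1 size factor do, and are called normalized counts here. Counted in those steps the libraries held from 16575546 to 18441049. Values are given in the order of replicates 1, 2 and 3, and fold changes are log2 after adding 0.1 to each normalized count, so the changes of low genes depend on that constant. Positions are on GRCh38. ZDHHC20 itself was 2001, 2033 and 1940.4 in the shControl libraries and 872, 779 and 893 in the shZDHHC20 libraries, with no overlap (log2 fold change -1.23, standard error 0.0649, adjusted p = 4.36e-07, limma). Replicate 2 of shZDHHC20 stood apart: it was the library farthest from the other 2 of its group in 59.4% of the 10908 genes that averaged at least 100. Of the 32 members at that level this held for 22, or 68.8%. KRT8, KRT18, KRT19, KRT7 and VIM, the markers taken for PANC-1, were all 5 present and none passed the test, and their summed value was from 101600 to 103900 in the shControl and from 95060 to 98990 in the shZDHHC20 libraries. Of 12 leukocyte markers 6 had a row, with sums from 66.7 to 71.3 and from 38.2 to 75.1, and PTPRC, which marks all leukocytes, stayed between 0 and 6.36. Of 8 fibroblast and stellate cell markers 5 had a row, and their sum, nearly all of it COL1A1, was from 3969 to 4042 and from 3195 to 3479, with COL1A1 lower (log2 fold change -0.27, adjusted p = 0.00288 from limma). The 3 of 5 endothelial markers summed to between 40.1 and 55.6 and between 32.9 and 47.7, and the 2 of 6 acinar and islet markers to between 1.004 and 4.04 and between 4.81 and 12.7. The part of these markers in the results below was not tested, and in bulk libraries fewer cells of a type and less RNA per cell cannot be told apart.

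Silencing of ZDHHC20 went with lower levels of a large share of these genes. At an adjusted p under 0.05 (limma, two-sided, Benjamini-Hochberg over 22189 genes), 17 of the 45 members were lower in the shZDHHC20 libraries, or 37.8%, against 6.84% of all genes tested. Only CXCL1 and IL6R were higher, 2 of 45 or 4.44%, against 4.61% of all genes, and 26 members did not pass. The genes that fell furthest were IL6ST, RELB, IL32, ICAM1 and NFKB2, to between 54.2% and 62.3% of the shControl mean, and the other 12 that fell kept from 67.5% to 83.2%. The median log2 fold change over the 45 members was -0.25, while over all genes tested it was 0.01. Genes with higher values passed more often, so the count was also taken among those averaging at least 100. There, 17 of 32 members were lower, or 53.1%, against 13.3% of all genes at that level, and 1 member was higher, where 8.41% of all genes were. In 19 members every shZDHHC20 library lay below every shControl library, where this held for 14.8% of all genes, and in 4 members every one lay above, where this held for 13.8%. With an unadjusted p under 0.01 and a change of at least 1.5-fold, 6 members passed, against 2.45% of all genes: RELB, NFKB2, CXCL1, IL32, ICAM1 and IL6ST. No test of the list as a whole was made, since its genes were chosen with results of these libraries known.

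How many members passed depended on the fit. Leaving out shControl replicate 1, 2 or 3 left 11, 12 and 12 of the 19 calls, while calls over all genes went from 2541 to 1036, 1167 and 1042. Leaving out shZDHHC20 replicate 2 gave 24, the 19 and 5 more, with 4268 calls over all genes. The member counts thus moved in the same direction as those of all genes. When limma moderated the variances without a mean-variance trend 6 passed, IL6ST, IL6R, RELB, NFKB2, NFKBIA and ICAM1, and these 6 passed in every one of the 16 fits made. The other 13 had an adjusted p from 0.0524 (BIRC3) to 0.281 (TRAF2) there. For 18 of the 19 called members the exact permutation p over the libraries (two-sided) was 0.1, the smallest that 3 against 3 allows, and for TRAF2 it was 0.2.

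**Figure D1:**
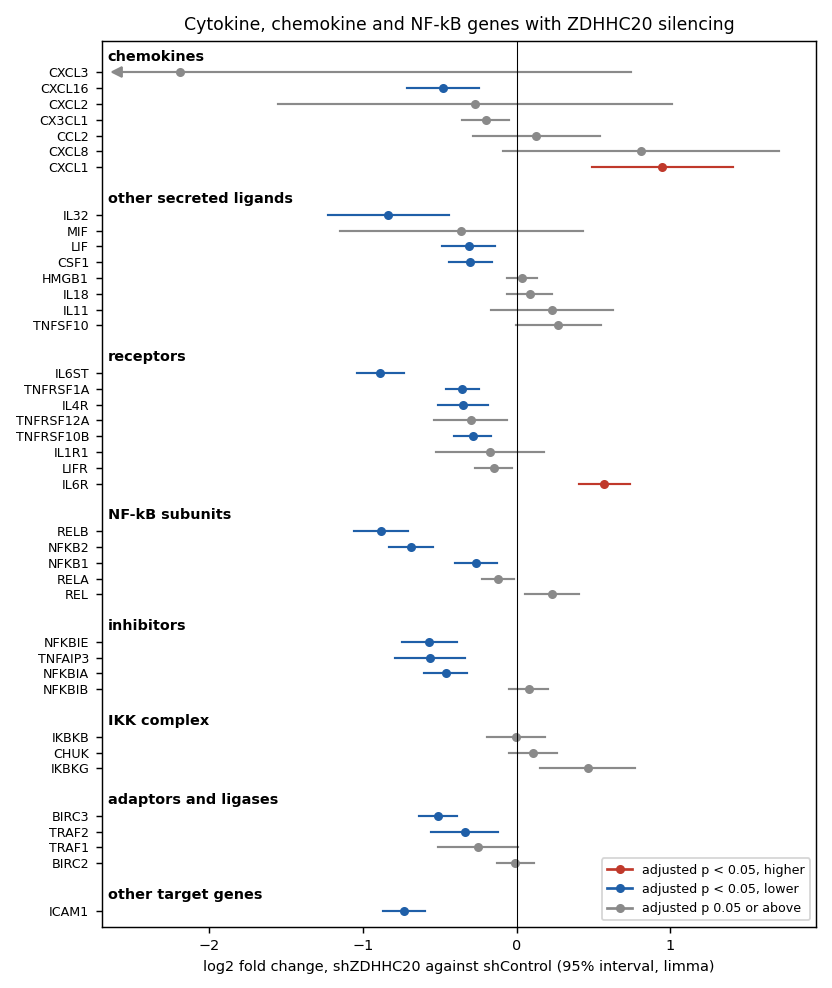
Log2 fold changes of shZDHHC20 against shControl (x axis, log2 scale) with their 95% intervals from limma, for the 40 members with a mean of at least 5, grouped by role. Blue marks members lower and red members higher at an adjusted p under 0.05, grey the rest; the arrow on CXCL3 marks an interval that runs past the axis to -5.13. Receptors, subunits and inhibitors hold most of the blue points, and the IKK complex has none.

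Promoters were searched for the kB consensus, the motif of 10 bases that NF-kB dimers bind, since several of these genes are textbook targets. RefSeq promoters on GRCh38.p14, from 250 bases before to 50 after the start, were given for 34 of the 45 members tested, and both strands were read, with overlapping matches taken as one. A match was held by 12 of the 34, or 35.3%, against 5.72% of all promoters (1562 of 27305) and 6.7% of those of the genes tested. The list was made to hold NF-kB genes and known targets, so a share above that of all promoters reflects that choice. Of the 17 members that fell only 11 had a promoter, and 6 of these held a match (54.5%). IL6ST, ICAM1, NFKB2, TNFRSF1A and TRAF2 fell and held none. Among the genes that fell furthest IL32 alone held a match, and RELB had no promoter to search. Among members not called it was 5 of 21 (23.8%): REL, CCL20, CXCL2, CXCL3 and CXCL5. CXCL1, which rose, also held one. These are descriptions of letters in a window, with no test, and they do not show binding or why a gene fell. The windows below come from members that fell (NFKB1, BIRC3, NFKBIA, TNFAIP3, IL32) and from the closely related chemokines CXCL1, CXCL2 and CXCL3, printed 5′ to 3′ on the strand of the gene with the matched bases in capitals.
NFKB1: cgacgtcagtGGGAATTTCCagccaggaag
BIRC3: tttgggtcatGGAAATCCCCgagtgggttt
BIRC3: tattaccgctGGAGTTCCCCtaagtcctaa
NFKBIA: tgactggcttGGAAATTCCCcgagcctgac
TNFAIP3: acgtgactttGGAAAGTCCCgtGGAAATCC
IL32: ctgtactcaGGGAGTTTCCCcagccagct
CXCL1: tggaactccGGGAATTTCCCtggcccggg
CXCL2: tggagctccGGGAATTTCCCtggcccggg
CXCL3: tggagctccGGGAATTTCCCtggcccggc

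The first matched base lay 49 bases before the start in NFKB1 (chr4:102501300-102501329), 199 and 135 in BIRC3 (chr11:102317275-102317304 and chr11:102317339-102317368) and 81 in NFKBIA (chr14:35404811-35404840, minus strand). TNFAIP3 held a pair of matches, at 67 and 55 bases, and the window shown (chr6:137867182-137867211) ends within the second. In IL32 the match lay 99 bases before the start (chr16:3065295-3065323). Distances are to the start of the RefSeq promoter. The gene spans given below come from another annotation (GENCODE 29) and can begin elsewhere, so the matches of IL32 and TNFAIP3 lie inside their spans. The same match stood at 79 bases in CXCL1 (chr4:73869305-73869333), 78 in CXCL2 (chr4:74099254-74099282, minus strand) and 79 in CXCL3 (chr4:74038749-74038777, minus strand), and of these 3 only CXCL1 passed the test. REL, CCL20, CXCL5 and IL4R held matches as well. RELB, NFKBIE, CXCL16, CSF1, LIF, TNFRSF10B, TNFRSF12A, CX3CL1, CCL2, IL18 and IKBKB were not in the promoter table.

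Of the chemokines, which draw leukocytes, 9 were listed and tested, and 1 rose and 1 fell. CXCL1 (ENSG00000163739), a neutrophil attractant that signals through CXCR2, was 42.4, 35.2 and 50.1 in the shControl libraries and 101, 76.1 and 70.3 in the shZDHHC20 libraries. CXCL1 spans 73869393 to 73871242 of chromosome 4 (plus strand). Every shZDHHC20 library lay above every shControl library, and the mean rose from 42.6 ± 7.46 to 82.3 ± 16.2 (SD, n = 3), to 194% (log2 fold change 0.95, standard error 0.213, adjusted p = 0.0110). The call was lost without shControl replicate 1 (adjusted p = 0.0611), shControl replicate 2 (0.0695) or shZDHHC20 replicate 1 (0.0843). The coding sequence of CXCL1 is 93.5% identical to that of CXCL2 and 90.7% to that of CXCL3, over 321 bases each, so reads could be shared between them and their values are uncertain. CXCL2 was 5.05, 25.1 and 17.0 in the shControl libraries and 8.48, 18.8 and 7.70 in the shZDHHC20 libraries, and CXCL3 11.1, 8.03 and 3.004 in the shControl libraries and 7.42, 0 and 3.85 in the shZDHHC20 libraries. Both overlapped widely between the groups (-0.27, adjusted p = 0.835 for CXCL2 and -2.19, adjusted p = 0.367 for CXCL3 on the log2 scale, limma), and the sign of CXCL2 turned without shControl replicate 2 (0.20).

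CXCL16 (ENSG00000161921), a membrane-bound chemokine and ligand of CXCR6, was 344, 367 and 338 in the shControl libraries and 261, 214 and 280.0 in the shZDHHC20 libraries. CXCL16 spans 4733526 to 4739922 of chromosome 17 (minus strand). The groups did not overlap, and the mean fell from 349.5 ± 15.0 to 252 ± 33.9 (SD, n = 3), to 72.0% (log2 fold change -0.48, standard error 0.109, adjusted p = 0.0114). It was past the threshold with all libraries but not without any 1 of the shControl libraries (adjusted p = 0.0687, 0.0839 and 0.0654 without replicates 1, 2 and 3). MED11, which overlaps CXCL16 on the other strand, was 83.9, 84.4 and 76.1 against 135, 142 and 178, and whether the counting used the strand is not given in the sources used here. CX3CL1 (fractalkine), the other membrane-bound chemokine, was 864, 895 and 924 in the shControl libraries and 721, 839 and 777 in the shZDHHC20 libraries, all lower but not past the threshold (-0.20, adjusted p = 0.0954), and it passed without shZDHHC20 replicate 2 (0.00903). CXCL8, the interleukin 8 gene, was low at 8.08, 13.1 and 10.0 in the shControl libraries and 21.2, 12.2 and 22.1 in the shZDHHC20 libraries, with overlap (0.81, adjusted p = 0.264). CCL2, the monocyte attractant, was between 55.1 and 80.8 in the 6 libraries (0.13, adjusted p = 0.748). CCL20 and CXCL5 stayed under 8 in each library, and no difference was detectable at that level.

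Among the other secreted ligands 11 were tested, and 3 fell and none rose. IL32 (ENSG00000008517), an inflammatory cytokine, was 143, 161 and 162 in the shControl libraries and 117, 66.7 and 84.7 in the shZDHHC20 libraries. IL32 spans 3065297 to 3082192 of chromosome 16 (plus strand). The groups did not overlap and the mean fell from 155 ± 10.4 to 89.3 ± 25.3 (SD, n = 3), to 57.5% (log2 fold change -0.83, standard error 0.184, adjusted p = 0.00990). Within the shZDHHC20 group it was spread, with replicate 1 highest and replicate 2 lowest, and the call was lost without shControl replicate 1, 2 or 3 (adjusted p = 0.0556, 0.0756 and 0.0883).

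CSF1 (ENSG00000184371), the growth factor of macrophages, was 1049.9, 1093 and 1004 in the shControl libraries and 888, 819 and 847 in the shZDHHC20 libraries. CSF1 spans 109910242 to 109930992 of chromosome 1 (plus strand). It did not overlap between the groups, and fell from 1049 ± 44.3 to 851 ± 34.9 (SD, n = 3) (log2 fold change -0.30, standard error 0.0648, adjusted p = 0.00872), with the call lost without shControl replicate 1 (0.0610) or 2 (0.0695). LIF (ENSG00000128342), a ligand of the interleukin 6 family that acts through LIFR and IL6ST, was 1909, 1744 and 1716 in the shControl libraries and 1367, 1652 and 1322 in the shZDHHC20 libraries. LIF spans 30240447 to 30246851 of chromosome 22 (minus strand). All shZDHHC20 libraries were lower, but replicate 2 lay close to the shControl range while replicates 1 and 3 were well under it, and the mean fell from 1789.5 ± 104 to 1447 ± 179 (SD, n = 3) (log2 fold change -0.31, standard error 0.0801, adjusted p = 0.0230). The call of LIF was lost on leaving out each library other than shZDHHC20 replicate 2, with an adjusted p from 0.0962 to 0.162. LIF overlaps AC004264.1 and LIF-AS1 on the other strand, which were at most 53.5 and 4.70 in any library.

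The other ligands did not pass. HMGB1, a chromatin protein that acts as an alarm signal once released, was 6958, 7229 and 6804 in the shControl libraries and 7011, 7115 and 7372 in the shZDHHC20 libraries, overlapping, with an interval of the log2 fold change of -0.06 to 0.13. IL18, made as an inactive precursor, was from 875 to 1010.5 in the 6 libraries (interval -0.06 to 0.23). TNFSF10, the death ligand TRAIL, was 116, 138 and 131 in the shControl libraries and 157, 144 and 164 in the shZDHHC20 libraries, all higher but not past the threshold (0.27, adjusted p = 0.215). IL11, another ligand that uses IL6ST, was between 69.3 and 102 (0.23, adjusted p = 0.501, limma). MIF was between 12.7 and 28.3 (-0.36, adjusted p = 0.610, limma). MIF shares its place with a further gene model on the same strand and an antisense gene, so its value is uncertain. TNF, IL1A and IL1B had at most 4.81 in any library, and IL6, which was not tested, at most 2.12.

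Of the 8 receptors tested 4 fell and 1 rose. IL6ST (ENSG00000134352), the gp130 chain through which most ligands of the interleukin 6 family signal, was 6034, 6192 and 6386 in the shControl libraries and 3622, 2922 and 3559.7 in the shZDHHC20 libraries. IL6ST spans 55935095 to 55994993 of chromosome 5 (minus strand). The mean fell from 6204 ± 176 to 3368 ± 388 (SD, n = 3), to 54.3%, with no overlap and replicate 2 the lowest (log2 fold change -0.89, standard error 0.0710, adjusted p = 7.81e-06), and across all fits the log2 fold change was between -0.94 and -0.79. IL6R (ENSG00000160712), the chain that binds interleukin 6 and pairs with IL6ST, went the other way and was 480.0, 437 and 437 in the shControl libraries and 636, 666 and 706 in the shZDHHC20 libraries. IL6R spans 154405193 to 154469450 of chromosome 1 (plus strand). It rose from 451 ± 25.0 to 669 ± 35.3 (SD, n = 3), to 148%, with every shZDHHC20 library above every shControl library (log2 fold change 0.57, standard error 0.0773, adjusted p = 3.79e-04). LIFR, which pairs with IL6ST for LIF, was 3479, 3475 and 3424 in the shControl libraries and 3249.8, 2880.3 and 3249 in the shZDHHC20 libraries, all lower by a small margin and not past the threshold (-0.15, adjusted p = 0.114).

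TNFRSF1A (ENSG00000067182), the widely expressed receptor of TNF, was 3030.4, 2979.9 and 3147 in the shControl libraries and 2419.9, 2401 and 2349 in the shZDHHC20 libraries. TNFRSF1A spans 6328757 to 6342114 of chromosome 12 (minus strand). The groups did not overlap, and it fell from 3052 ± 85.6 to 2390.1 ± 36.7 (SD, n = 3), to 78.3% (log2 fold change -0.35, standard error 0.0491, adjusted p = 4.53e-04). TNFRSF10B (ENSG00000120889), a death receptor for TRAIL, was 1867, 1899 and 1913 in the shControl libraries and 1524, 1642 and 1497 in the shZDHHC20 libraries. TNFRSF10B spans 23020133 to 23069179 of chromosome 8 (minus strand). It was lower in all 3 libraries (log2 fold change -0.29, standard error 0.0562, adjusted p = 0.00510), and the call was lost without shControl replicate 3 (0.0511). It overlaps RHOBTB2 on the other strand, which was 84.9, 89.4 and 95.1 against 104, 135 and 128. IL4R (ENSG00000077238), a chain of the interleukin 4 and 13 receptors, was 801, 747 and 811 in the shControl libraries and 626, 659 and 569 in the shZDHHC20 libraries. IL4R spans 27313668 to 27364778 of chromosome 16 (plus strand). It too was lower without overlap (log2 fold change -0.35, standard error 0.0756, adjusted p = 0.00904), and was above the threshold without shControl replicate 1 (0.0716) or 3 (0.0787). TNFRSF12A, the receptor of TWEAK, was 2147, 1902 and 2060.5 in the shControl libraries and 1538, 2074 and 1413 in the shZDHHC20 libraries: replicates 1 and 3 were far below the shControl range and replicate 2 within it (-0.30, adjusted p = 0.103 with all libraries, and 1.68e-04 without that replicate). IL1R1, at 82.6 to 118 in the 6 libraries, overlapped (-0.17, adjusted p = 0.576). IL6ST, IL4R and IL1R1 overlap antisense genes not analysed here, and LIFR and TNFRSF12A overlap LIFR-AS1 and CLDN6.

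**Figure D2:**
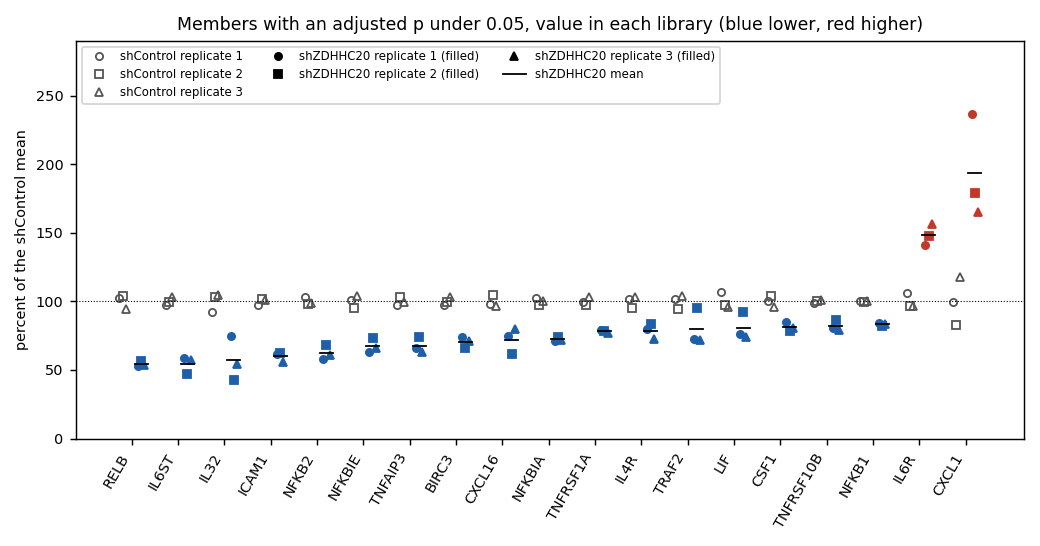
Value of each of the 19 members with an adjusted p under 0.05 in each library, as percent of that member's shControl mean (y axis, from 0), with open symbols for shControl, filled symbols for shZDHHC20 and a bar at the shZDHHC20 mean. Replicate 2 of shZDHHC20 (squares) is the highest of its group in 10 of the 17 members that fell and the lowest in 6; only TRAF2 has a shZDHHC20 library within the shControl range.

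Of the 5 NF-kB subunits 3 fell, led by the pair of the non-canonical arm. RELB (ENSG00000104856) was 576, 584 and 529.6 in the shControl libraries and 298, 317 and 300.2 in the shZDHHC20 libraries. RELB spans 45001430 to 45038198 of chromosome 19 (plus strand). The libraries of each group lay close together and far from the other group, and the mean fell from 563 ± 29.2 to 305 ± 10.7 (SD, n = 3), to 54.2% (log2 fold change -0.88, standard error 0.0812, adjusted p = 2.00e-05). NFKB2 (ENSG00000077150), whose p100 precursor yields the p52 partner of RELB, was 1874, 1776 and 1793 in the shControl libraries and 1055, 1238 and 1098 in the shZDHHC20 libraries. NFKB2 spans 102394110 to 102402529 of chromosome 10 (plus strand). It fell from 1814 ± 52.7 to 1130.2 ± 95.7 (SD, n = 3), to 62.3%, without overlap (log2 fold change -0.69, standard error 0.0668, adjusted p = 2.80e-05). NFKB1 (ENSG00000109320), the source of p50, was 832, 826 and 833 in the shControl libraries and 696, 681 and 694 in the shZDHHC20 libraries. NFKB1 spans 102501329 to 102617302 of chromosome 4 (plus strand). This was a smaller fall, from 830.1 ± 3.95 to 690.4 ± 8.33 (SD, n = 3), with no overlap and a narrow spread within each group (log2 fold change -0.27, standard error 0.0629, adjusted p = 0.0150), and the call was lost without any 1 shControl library (adjusted p from 0.0663 to 0.0775) or without shZDHHC20 replicate 1 (0.0548).

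RELA and REL, the other subunits that can activate transcription, did not pass. RELA, the most abundant subunit per length, was 2935, 3012 and 3028 in the shControl libraries and 2826, 2710.3 and 2698 in the shZDHHC20 libraries, all lower by a small margin (-0.12, adjusted p = 0.129, interval -0.23 to -0.02), and passed without shZDHHC20 replicate 2 (0.0425). REL was 361, 398 and 416 in the shControl libraries and 460.0, 455 and 460.0 in the shZDHHC20 libraries, all higher (0.23, adjusted p = 0.0958, interval 0.05 to 0.41). RELB and NFKB2 had intervals (-1.06 to -0.71 and -0.83 to -0.54) that did not meet those of RELA and REL, though the differences between genes were not tested.

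The inhibitors fell in 3 of 4 cases. NFKBIA (ENSG00000100906), the IkB alpha gene, was 871, 833 and 854 in the shControl libraries and 608, 634 and 613 in the shZDHHC20 libraries. NFKBIA spans 35401511 to 35404749 of chromosome 14 (minus strand). The mean fell from 853 ± 19.2 to 618 ± 13.6 (SD, n = 3), to 72.5%, with no overlap (log2 fold change -0.46, standard error 0.0650, adjusted p = 4.86e-04), and the call held in every fit. NFKBIE (ENSG00000146232), IkB epsilon, was 594, 557 and 608 in the shControl libraries and 371, 431 and 386 in the shZDHHC20 libraries, and fell to 67.5% of the shControl mean (log2 fold change -0.57, standard error 0.0830, adjusted p = 6.49e-04). NFKBIE spans 44258166 to 44265788 of chromosome 6 (minus strand). TNFAIP3 (ENSG00000118503), the A20 ubiquitin-editing enzyme that ends signalling from the TNF receptor, was 251, 264 and 255 in the shControl libraries and 169.6, 189.7 and 162 in the shZDHHC20 libraries. TNFAIP3 spans 137867188 to 137883312 of chromosome 6 (plus strand). It fell to 67.7% (log2 fold change -0.57, standard error 0.106, adjusted p = 0.00363), also without overlap, and AL357060.1, which overlaps it on the other strand, had at most 8.66 in any library. NFKBIB, IkB beta, had the highest level per length of all members and was 2974, 2878 and 2731 in the shControl libraries and 2990.2, 3249 and 2828 in the shZDHHC20 libraries, overlapping (0.08, adjusted p = 0.475, interval -0.05 to 0.21). NFKBIB overlaps SIRT2 on the other strand, which was 2205, 2259 and 2193 against 2163, 2309 and 2248.

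None of the 3 genes of the IKK complex passed. CHUK (ENSG00000213341), the IKK alpha kinase and the member of the complex with the highest mean, was 1090.3, 1146 and 1086 in the shControl libraries and 1261, 1066 and 1255 in the shZDHHC20 libraries. CHUK spans 100188298 to 100229619 of chromosome 10 (minus strand). Replicates 1 and 3 were above the shControl libraries and replicate 2 below them (log2 fold change 0.10, standard error 0.0725, adjusted p = 0.427), and without replicate 2 it passed as higher (0.18, adjusted p = 0.0179). CHUK overlaps ERLIN1 on the same strand, which was 2049, 2115 and 2028 against 1674, 1612 and 1756. IKBKB, IKK beta, was from 350.3 to 397 in the 6 libraries (interval -0.19 to 0.18). IKBKG, the regulatory subunit NEMO, was 354, 348 and 391 in the shControl libraries and 371, 594 and 569.7 in the shZDHHC20 libraries, with replicate 1 among the shControl libraries and replicates 2 and 3 well above them (0.46, adjusted p = 0.0574). It passed without shZDHHC20 replicate 1 (0.00360), but its value is uncertain, since it has the near-identical pseudogene IKBKGP1, which was 111 in shControl replicate 1 and between 7.03 and 20.2 in the other libraries.

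**Figure D3:**
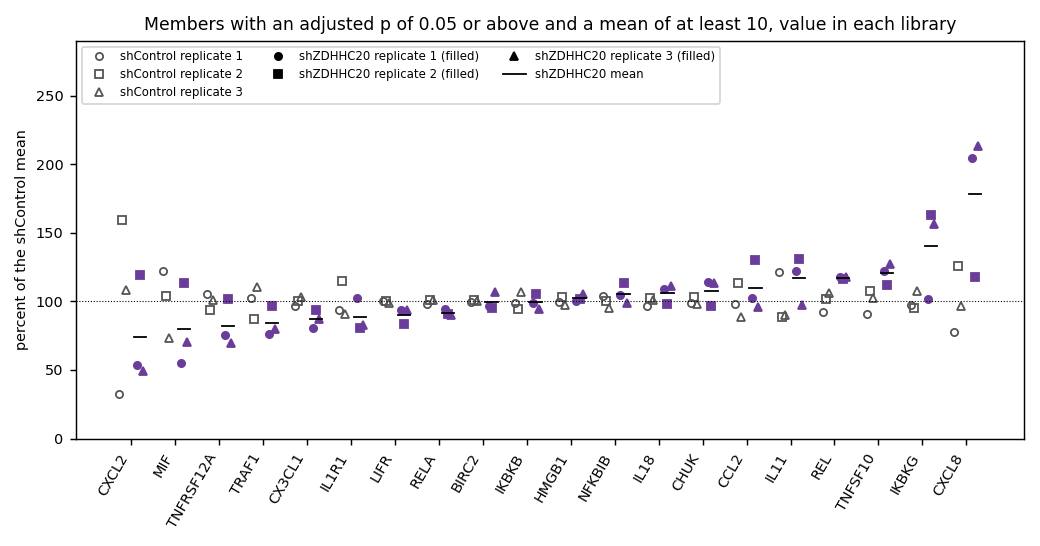
Value of each of the 20 members with an adjusted p of 0.05 or above and a mean of at least 10 in each library, as percent of that member's shControl mean (y axis, from 0), with symbols as in the plot of the members that passed. Filled purple symbols are shZDHHC20; in TNFRSF12A and CHUK replicate 2 (squares) lies away from replicates 1 and 3, and in IKBKG replicate 1 (circle) does.

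Of the 4 adaptors and ubiquitin ligases 2 fell. BIRC3 (ENSG00000023445), the cIAP2 ligase, was 2428, 2489.8 and 2571 in the shControl libraries and 1853, 1645 and 1766 in the shZDHHC20 libraries. BIRC3 spans 102317450 to 102339403 of chromosome 11 (plus strand). It fell from 2496 ± 71.7 to 1755 ± 104 (SD, n = 3), to 70.3%, without overlap (log2 fold change -0.51, standard error 0.0578, adjusted p = 9.06e-05). Its neighbour and relative BIRC2, cIAP1, was 2545, 2583 and 2572 in the shControl libraries and 2484, 2441 and 2743 in the shZDHHC20 libraries, overlapping, with an interval of -0.13 to 0.11 that did not meet that of BIRC3 (-0.63 to -0.39), though the difference between these genes was not tested. TRAF2 (ENSG00000127191), the adaptor that brings both ligases to receptors, was 729, 679 and 742 in the shControl libraries and 517, 683 and 514 in the shZDHHC20 libraries. TRAF2 spans 136881912 to 136926607 of chromosome 9 (plus strand). Replicate 2 lay within the shControl range and replicates 1 and 3 far below it. TRAF2 was only just past the threshold (log2 fold change -0.34, standard error 0.102, adjusted p = 0.0479), and the call was lost without each library other than that replicate (adjusted p from 0.123 to 0.233), with a pseudocount of 0.01 (0.0694) and with quantile normalization (0.0745). TRAF1, which NF-kB induces, was 291, 248 and 313 in the shControl libraries and 216, 274 and 227 in the shZDHHC20 libraries (-0.25, adjusted p = 0.229), and passed as lower without shZDHHC20 replicate 2 (0.0454).

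ICAM1 (ENSG00000090339), an adhesion molecule for leukocytes that TNF induces through NF-kB, was 1432, 1490.5 and 1486 in the shControl libraries and 905, 921 and 824 in the shZDHHC20 libraries. ICAM1 spans 10270835 to 10286615 of chromosome 19 (plus strand). The groups lay far apart, and the mean fell from 1469 ± 32.6 to 883 ± 52.3 (SD, n = 3), to 60.1% (log2 fold change -0.74, standard error 0.0634, adjusted p = 1.30e-05). AC011511.5, on the other strand, had at most 1.92 in any library. The log2 fold change was between -0.77 and -0.69 in all fits.

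Per kilobase of exon, the shControl levels of the members ran over a wide range. The 5 highest were NFKBIB (1231 ± 52.5, mean ± SD of normalized counts per kilobase, n = 3), TNFRSF12A (1102 ± 67.2), HMGB1 (906 ± 27.9), TNFRSF1A (762 ± 21.4) and IL6ST (668 ± 18.9), and each of these differed from the next by more than the sum of their SDs. Among the subunits RELA (548 ± 9.04) was above NFKB2 (405 ± 11.7), RELB (186 ± 9.61), NFKB1 (133 ± 0.632) and REL (29.7 ± 2.12). With ZDHHC20 silencing IL6ST moved from rank 5 to 9 among the 45 members, NFKB2 from 9 to 13, ICAM1 from 10 to 14 and RELB from 19 to 25. These ranks are a description, with no test.

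Other genes of the pathway were listed by hand for their known roles and read in the same fit. These lists too were made with earlier results of these libraries known, so their shares are descriptions and no list was tested as a whole. Of 57 other signalling genes tested 5 were lower and 2 higher, 12.3% in all against 11.5% of all genes tested. Among the 49 that averaged at least 100, 5 were lower, or 10.2%, against 13.3% of all genes at that level. At that level 2 were higher, where 8.41% of all genes were, so their share was not above that of all genes. Of the 57, the 5 with the smallest adjusted p were UBE2D3, IRAK2, XIAP, MAP3K14 and IRAK4. IRAK2, a kinase of interleukin 1 and Toll-like receptor signalling, was 985, 997 and 1012 in the shControl libraries and 646, 726 and 589 in the shZDHHC20 libraries (log2 fold change -0.62, standard error 0.0784, adjusted p = 2.30e-04). MAP3K14, the NIK kinase that acts upstream of NFKB2, was 1428, 1359.9 and 1459 in the shControl libraries and 1202, 1193 and 1033 in the shZDHHC20 libraries, lower without overlap (log2 fold change -0.31, standard error 0.0693, adjusted p = 0.0104), with the call lost without shControl replicate 1 (0.0798) or 3 (0.0930). MAP3K14 and UBE2D3 overlap antisense genes. UBE2D3, a ubiquitin-conjugating enzyme, fell from 3653 ± 75.4 to 2720.3 ± 161 (SD, n = 3) (-0.43, adjusted p = 2.22e-04), and IRAK4 from 452 ± 18.9 to 351 ± 26.7 (SD, n = 3) (-0.37, adjusted p = 0.0145), the latter not past the threshold without any 1 of the shControl libraries (adjusted p from 0.0630 to 0.0989) or shZDHHC20 replicate 3 (0.0535). XIAP, an inhibitor of caspases, rose from 3964 ± 62.3 to 4853 ± 277 (SD, n = 3) (0.29, adjusted p = 0.00250).

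Of 46 other known NF-kB target genes 13 were lower and 5 higher, 39.1% in all against 11.5% of all genes tested. The share that was lower was 28.3% against 6.84%, and the share that was higher 10.9% against 4.61%. Among the 33 that averaged at least 100, 12 were lower, or 36.4%, against 13.3% of all genes at that level. At that level 4 were higher, where 8.41% of all genes were. The median log2 fold change of the 46 was -0.16. The 5 with the smallest adjusted p were CCND1, TNFAIP2, PLK2, PLAU and ELF3, so genes of both directions led the list. CCND1 (cyclin D1) was 9259.9, 9233 and 9380.5 in the shControl libraries and 6824, 6458 and 6855 in the shZDHHC20 libraries (log2 fold change -0.47, standard error 0.0434, adjusted p = 2.06e-05). TNFAIP2, named for its induction by TNF, fell from 10744 ± 87.2 to 7242 ± 574 (SD, n = 3) (-0.57, adjusted p = 2.36e-05), and PLAU, the urokinase gene, from 4783 ± 78.0 to 3406 ± 116 (SD, n = 3) (-0.49, adjusted p = 2.69e-05). PLK2, a stress-induced polo-like kinase, rose from 1609 ± 43.7 to 2349 ± 28.8 (SD, n = 3) (0.55, adjusted p = 2.38e-05), and ELF3, an epithelial transcription factor, from 1138 ± 39.0 to 1621 ± 125 (SD, n = 3) (0.51, adjusted p = 2.70e-04). CCND1, PLAU and ELF3 overlap genes on the other strand. A kB match was held by 11 of the 37 of these targets in the promoter table (29.7%), and by 4 of 51 of the signalling genes (7.84%). The targets were listed as known ones, so their share reflects that choice, and it was not tested.

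Of 59 other cytokines and cytokine receptors 3 were lower and 1 higher, 6.78% in all against 11.5% of all genes. Among the 23 that averaged at least 100, 2 were lower, or 8.7%, against 13.3% of all genes at that level. At that level 1 was higher, where 8.41% of all genes were. GDF15, a stress cytokine, was 8385, 7909 and 7875 in the shControl libraries and 5862, 6038 and 5861 in the shZDHHC20 libraries, with no overlap (log2 fold change -0.44, standard error 0.0447, adjusted p = 3.65e-05). IL27RA fell from 301 ± 29.6 to 218 ± 16.4 (SD, n = 3) (-0.47, adjusted p = 0.0130) and IL22RA1 from 39.5 ± 15.4 to 12.6 ± 6.21 (SD, n = 3) (-1.69, adjusted p = 0.0248), and neither passed without shControl replicate 1 (0.0954 and 0.154), shControl replicate 3 (0.0995 and 0.177), shZDHHC20 replicate 1 (0.0659 and 0.122) or shZDHHC20 replicate 3 (0.0559 and 0.0607). TNFRSF10D, a decoy receptor for TRAIL, rose from 226 ± 8.83 to 307 ± 17.0 (SD, n = 3) (0.44, adjusted p = 0.00859). TNFRSF10B, a signalling receptor for TRAIL, fell. TNFRSF10A and TNFRSF10C, also listed, were not among the genes that passed. The call of TNFRSF10D was lost without shControl replicate 1 (0.0555), shControl replicate 2 (0.0539) or shZDHHC20 replicate 1 (0.0576).

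**Figure D4:**
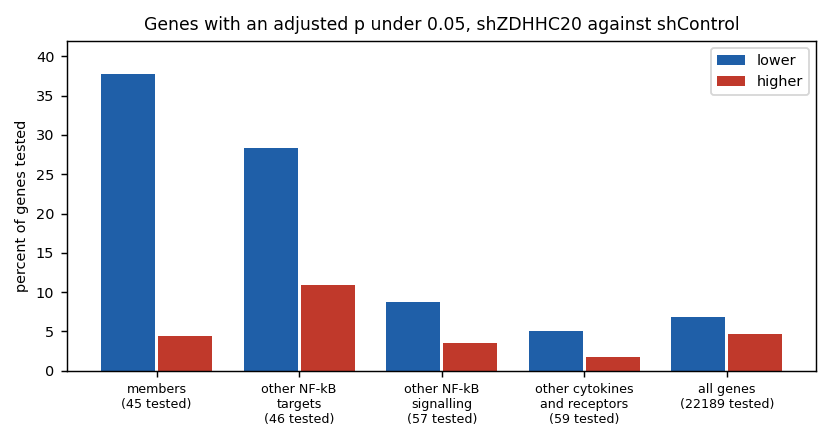
Share of genes tested (y axis, percent, from 0) with an adjusted p under 0.05 that were lower (blue) or higher (red) in the shZDHHC20 libraries, for the 45 members, the 3 other pathway lists and all 22189 genes. The bars for lower genes stand at 37.8% for the members, 28.3% for the other targets, 8.77% for the other signalling genes, 5.08% for the other cytokines and receptors and 6.84% for all genes. Genes were not matched for level, and the lists were chosen with earlier results of these data known.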

How the data were processed

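PANC-1 cells were grown in RPMI-1640 per the labels, while the methods of the study name DMEM for its cell lines. RNA was taken with Trizol and strand-marking Illumina libraries were prepared, 3 for each group. The authors deposited 1 table of normalized signal, never negative, for 27394 genes and 6 libraries. It is named as FPKM, but within each library all values above 0 were whole multiples of its smallest one (100% within a tolerance of 0.02), so the values do not look divided by gene length. The submitters' notes name the build hg19, and the aligner, the counter and the use of strand are not given in the sources used here. Columns named siZDHHC20 and NC were matched to shZDHHC20 and shControl by group and number. Names came from the reference table (27175 identifiers) and otherwise from GENCODE 29 on GRCh38, which gave the positions, exon lengths and overlaps printed here.

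Values were taken to log2 after adding 0.1, genes with a mean of at least 1 were kept, and groups were compared with limma 3.58.1 (R 4.3.3, lmFit and eBayes with a mean-variance trend, two-sided, Benjamini-Hochberg adjustment over 22189 genes). An exact permutation test over the 6 libraries stands beside it. The members and lists were chosen with earlier results of these data known. Members with an adjusted p under 0.05 were described by library, in a role group with none the member with the highest mean, and in each other list the 5 genes with the smallest adjusted p. FPKM had been assumed when the test was chosen, and it was kept for this signal. On simulated data 200 of 200 genes changed 2-fold were recovered, with 2 false calls among 22237 tested, and with no change simulated 0 of 22182 were called (limma). The simulation gave all genes the same spread, changed only genes above a set mean, and held no library that stood apart. It checks that the code runs as meant, and cannot show how smaller changes or false calls fare in these libraries. Alternatives were other pseudocounts, filters, scalings, variance models, leaving out each library, and a replicate block. Motifs and figures were made in Python 3.11.15 with matplotlib 3.10.9, and coding identity with Biopython 1.88. Depth is known only as steps, so no counting intervals are given.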

Additional observations from a re-analysis of the deposited data

How the results depend on the processing

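In the 15 alternatives none of the called members or called genes of the other lists changed direction. Among members not called, CXCL2, CCL2, BIRC2, IKBKB and IL1A changed sign in at least 1 alternative. Without the mean-variance trend of limma, 5 members were lower and 1 higher, against 17 and 2, and 3 other targets, 1 other cytokine or receptor and 0 other signalling genes passed (12 of the signalling genes at an unadjusted p under 0.05), while the calls over all genes went from 2541 to 351. The cause was not tested. Leaving out 1 library at a time gave from 10 to 21 lower and from 1 to 3 higher members, 3 to 12 other signalling genes, 11 to 25 other targets, 1 to 8 other cytokines and receptors, 6 to 8 members past an unadjusted p under 0.01 and 1.5-fold, and a log2 fold change of ZDHHC20 from -1.27 to -1.17. Over all genes the same fits gave from 1036 to 4268 calls. A pseudocount of 1 and a mean of at least 5 added IKBKG to the members called, and a pseudocount of 0.01 and quantile normalization removed TRAF2. With no filter, median-ratio scaling or robust moderation the 19 called members were kept. Deviations of same-numbered libraries from their group means were not positively correlated (-0.095, -0.156 and -0.077). With 3 libraries a group such correlations cannot show whether samples were handled as pairs. A replicate block called 1942 genes and again 19 members, without TRAF2 (adjusted p = 0.0610) and with IKBKG. Count-based tests had been planned as alternatives and were not run. Values of all 6 libraries were whole multiples of a step. A preset check of units did not accept the steps of the shControl libraries (1.01047, 1.00435 and 1.00122), which lie near 1. Genes under about 10 normalized counts (CXCL3, CCL20, CXCL5, TNF, IL1A, IL1B, IL6) are too low to show a difference at this depth.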

Other observations

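The other NF-kB targets that passed the test but were not among the 5 with the smallest adjusted p also held genes of both directions. Of the 13 such genes, 10 were lower. IRF1, a transcription factor of interferon responses, fell from 425 ± 23.9 to 298 ± 20.6 (SD, n = 3) (-0.51, adjusted p = 0.00247), and TAP1, a peptide transporter of antigen presentation, from 1279.7 ± 48.6 to 957 ± 138 (SD, n = 3) (-0.43, adjusted p = 0.00623). Both overlap genes on the other strand. EBI3, a subunit of interleukins 27 and 35, fell from 63.3 ± 13.8 to 27.4 ± 5.04 (SD, n = 3) (-1.20, adjusted p = 0.00699), the largest change among them, and CD83 from 234 ± 10.0 to 153 ± 23.7 (SD, n = 3) (-0.63, adjusted p = 0.00653). GADD45B, which is induced by stress and by TNF, was 1191, 1136 and 1118 in the shControl libraries and 702, 1021 and 762 in the shZDHHC20 libraries (-0.49, adjusted p = 0.0103), with replicate 2 well above replicates 1 and 3. The log2 fold changes of B4GALT1, FOSL1, NINJ1, NUAK2 and PLK3 were -0.44, -0.36, -0.48, -0.37 and -0.49. The 3 higher genes were SDC4, a heparan sulfate proteoglycan, from 1461 ± 10.1 to 1763 ± 88.6 (SD, n = 3) (0.27, adjusted p = 0.00770), TNC, the matrix protein tenascin C, from 102 ± 8.34 to 157 ± 16.8 (SD, n = 3) (0.62, adjusted p = 0.0103), and OLR1 from 56.7 ± 16.4 to 104 ± 22.4 (SD, n = 3) (0.90, adjusted p = 0.0210). Leaving out shControl replicate 1 ended the calls of EBI3, GADD45B, NUAK2, PLK3, SDC4, TAP1 and TNC (adjusted p from 0.0506 to 0.101). Without shControl replicate 2 the calls lost were CD83, EBI3, GADD45B, NUAK2, OLR1, PLK3 and TNC (adjusted p from 0.0587 to 0.119). Those lost without shControl replicate 3 were CD83, GADD45B, NUAK2, OLR1, SDC4 and TAP1 (adjusted p from 0.0542 to 0.111). The fit without shZDHHC20 replicate 1 lost GADD45B, NUAK2, OLR1, TAP1 and TNC (adjusted p from 0.0589 to 0.0867). With shZDHHC20 replicate 3 left out the losses were GADD45B, OLR1 and PLK3 (adjusted p from 0.0555 to 0.108).

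The signalling genes TAX1BP1 and CYLD, both of which restrain NF-kB, passed in opposite directions. TAX1BP1 was 3751, 3819.6 and 3644 in the shControl libraries and 4789, 3919 and 4820.4 in the shZDHHC20 libraries (0.26, adjusted p = 0.0275), and CYLD, a deubiquitinase, was 492, 510.2 and 485 in the shControl libraries and 436, 339 and 416 in the shZDHHC20 libraries (-0.33, adjusted p = 0.0439). Both calls were lost on leaving out any 1 library other than shZDHHC20 replicate 2.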
